A study of Mus musculus with 19 samples.

Results

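Tac1, Tac2, Tacr1, Tacr2 and Tacr3, the genes of the tachykinin peptides and of their 3 receptors, were followed across single cells of the lateral hypothalamic area of the mouse, which governs feeding and arousal. The members were taken by gene symbol, and all 5 were found among 52636 gene rows. Cells had been picked by hand into 19 plates of 96 wells from 7 male mice aged 6 to 8 weeks. Every plate belonged to a single untreated group, so the comparisons are between classes of cells within plates. Which mouse a plate came from is not labelled. All mice carried Agrp-IRES-Cre, which drives Cre in AGRP neurons of the arcuate nucleus, and the Cre-dependent tdTomato reporter Ai9. Fluorescent AGRP axons marked the border of the dissected area, and only cell bodies without fluorescence were picked, so AGRP neurons themselves were outside the pick.

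Of 1824 wells, 1612 were labelled LHA, and the 1534 of these with at least 1000 detected genes were kept. A cell entered the Hcrt class when at least 1% of its counts came from Hcrt, which encodes the wake-promoting orexin (hypocretin) peptides. It entered the Pmch class by the same limit for Pmch, the gene of melanin-concentrating hormone. Other cells formed the GAD class when Gad1 and Gad2, the genes of the GABA-synthesising enzymes, summed to at least 5 counts, and the rest formed the class without markers. The counts are called UMIs (unique molecular identifiers) because read 1 of the libraries carries one. The Hcrt class held 1066 cells with a median of 45733 UMIs, the Pmch class 70 cells with 59498, the GAD class 327 cells with 24486 and the class without markers 71 cells with 24969.

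Tachykinins are short peptides with a shared amidated end, cut by prohormone convertases from larger precursors. The Tac1 precursor gives substance P and neurokinin A, and the Tac2 precursor gives neurokinin B. Their receptors couple to Gq and phospholipase C. The product of Tacr1 prefers substance P, that of Tacr2 neurokinin A and that of Tacr3 neurokinin B. In the hypothalamus the family is best known from arcuate neurons that make neurokinin B together with kisspeptin and dynorphin and that pace the release of gonadotropin-releasing hormone.

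The coding stretches for the ends of the 3 peptides are shown because they set out how alike their bases are. They are printed 5′ to 3′ on the plus strand of GRCm38, from GENCODE M21 transcripts. Each runs over 10 codons, and the capitals mark the last 5 codons, the core that the receptors share as a ligand. The first lies in exon 3 of 7 of a Tac1 transcript, the next in exon 6 of 7 of the same transcript, and the last in exon 5 of 7 of a Tac2 transcript.
Tac1, end of substance P, chr6:7556735-7556764: cccaagcctcagcagTTCTTTGGATTAATG
Tac1, neurokinin A, chr6:7559101-7559130: cataaaacagattccTTTGTTGGACTAATG
Tac2, neurokinin B, chr10:127729116-127729145: gacatgcacgacttcTTTGTGGGACTTATG
Within the 15 capital bases, substance P and neurokinin A shared 12 bases, neurokinin A and neurokinin B shared 13, and substance P and neurokinin B shared 10. The core bases that differ between neurokinin A and neurokinin B leave the amino acids unchanged, so these counts do not rank the likeness of the peptides. In the 15 bases before the core, the same pairs shared 5, 6 and 5 bases. Tac1 (ENSMUSG00000061762) spans chr6:7554879-7565834 and Tac2 (ENSMUSG00000025400) chr10:127724478-127731768. Tacr1 (ENSMUSG00000030043) spans chr6:82402334-82560104, Tacr2 (ENSMUSG00000020081) chr10:62252438-62265990 and Tacr3 (ENSMUSG00000028172) chr3:134829007-134934579. All 5 are protein-coding genes on the plus strand, and none overlaps another annotated gene.

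The kept wells of a plate summed to between 1835641 and 5067927 UMIs. Among kept wells, 1507 passed a gate of neuronal markers and 27 did not. Genes shared by neurons (Snap25, Syt1 and 6 others) summed to between 5772 and 8149 counts per 1e6 UMIs (CPM) over the 4 classes. In the class without markers they ran from 127 to 9141 CPM over plates, and 9 of its 71 wells were outside the gate. Oligodendrocyte markers reached 1179 CPM in that class (up to 8829 on a plate), 360 in the Hcrt class, 153 in the GAD class and 12.9 in the Pmch class. Mural markers were at 73.1 CPM in the class without markers and at most 0.909 in the others. The part of these non-neuronal markers in the levels below was not tested. At least 2 UMIs of Slc32a1, the vesicular GABA transporter gene, were present in 38.8% of GAD class cells and in 0 of the 71 cells without markers. Slc17a6, which encodes a glutamate transporter of vesicles, reached the same 2 UMIs in 3.67% of the former and 64.8% of the latter. In all, 3 wells held at least 1% of both Hcrt and Pmch and were put in the class of the larger share.

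Tac1 was a gene of the GAD class, with a smaller set of cells in the class without markers. Of its 5448 UMIs, 85.3% lay in GAD class cells. At least 5 Tac1 UMIs, the limit used below for calling a cell a Tac1 cell, were found in 99 of 327 GAD class cells (30.3%, exact 95% interval 25.3 to 35.6), with a median of 36 and a highest value of 194 UMIs in those cells. Over the 16 plates with at least 3 GAD class cells, Tac1 ran from 0 through a median of 537 to 1097 CPM. In the Hcrt class it ran from 0 through 2.04 to 29.3 CPM over 19 plates. Of the 16 GAD class plates, 15 lay above the highest Hcrt class plate and 1 was at 0. The plate means were 528 ± 313 CPM (SD, n = 16) in the GAD class and 5.57 ± 7.15 CPM (n = 19) in the Hcrt class. The log2 fold change was 6.64 ± 0.57 (SE) with an edgeR adjusted p = 1.47e-11. Of 18198 genes tested in this comparison, 7.87% were called higher and 12.4% lower in the GAD class, and 3 of the 4 members tested were among the higher genes. With relative log expression size factors, which moved the median over all genes from -0.12 to 0.08, 2147 genes were called higher and 1507 lower, against 1432 and 2259. Some plates share a mouse, so these p-values can be too small.

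The class without markers carried Tac1 in 10 of 71 cells at the limit of 5 UMIs (14.1%, 6.97 to 24.4). Of these 10 cells, 9 had at least 2 Slc17a6 UMIs, 0 had a Slc32a1 UMI, and 1 cell of plate 14 alone held 268 of the class's 492 Tac1 UMIs. Over the 10 plates with at least 3 such cells, Tac1 ran from 0 through 60.4 to 771 CPM, and 5 of these plates lay above the highest Hcrt class plate. Against the Hcrt class the log2 fold change was 4.92 ± 0.74 (edgeR adjusted p = 7.35e-06), where 4.21% of genes were called higher and 9.08% lower. This call was lost with a peptide limit of 0.2% (4.13, adjusted p = 0.0566) and with only the 2 classes in the fit (4.73, adjusted p = 0.0850). The GAD class and the class without markers did not differ in Tac1 past the threshold (log2 1.72 ± 0.63, adjusted p = 0.108, 9 of 10 shared plates higher in the GAD class, 5.03% of genes called), but they did without plate 14 (2.37, adjusted p = 0.0159), with no filter on low counts (1.78, adjusted p = 3.1e-09) and at 10 Gad1 and Gad2 UMIs (1.77, adjusted p = 0.0492). The order of Tac1 over the classes was the GAD class at 503 pooled CPM, the class without markers at 259, the Hcrt class at 5.69 and the Pmch class at 0.647. The last of these rested on 3 UMIs, and the Pmch and Hcrt classes did not differ past the threshold (log2 -2.65 ± 1.66, adjusted p = 0.281). They did with no filter on low counts (-2.67, adjusted p = 0.000856) and with only the 2 classes in the fit (-2.60, adjusted p = 0.0211).

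In the Hcrt class, 10 of 1066 cells held at least 5 Tac1 UMIs (0.938%), with 6 to 60 UMIs each. Of these 10, 8 had at least 2 Slc17a6 UMIs and 5 had at least 5 UMIs of Gad1 and Gad2 together. Their Hcrt share ran from 1.31% to 10.8% of UMIs. Among Hcrt class cells with at least 5 Gad1 and Gad2 UMIs, 5 of 156 were Tac1 cells (3.21%), against 5 of 910 of the others (0.549%), at median depths of 58617 and 41965 UMIs.

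Tac2 too was a gene of the GAD class. Of its 3392 UMIs, 95.9% lay there, and 86 of 327 GAD class cells held at least 5 (26.3%, 21.6 to 31.4), with a median of 31 and a highest value of 167 UMIs in those cells. Over plates, Tac2 ran from 0 through 362 to 698 CPM in the GAD class and from 0 through 0.536 to 22.5 CPM in the Hcrt class. Here too 15 of 16 GAD class plates lay above every Hcrt class plate and 1 was at 0. Means were 353 ± 197 CPM (SD, n = 16) and 2.47 ± 5.42 CPM (n = 19), a log2 fold change of 7.29 ± 0.33 (edgeR adjusted p = 1.13e-25). No cell of the Pmch class or of the class without markers reached 5 Tac2 UMIs, which allows shares of up to 4.29% and 4.23%. On the plates compared, the GAD class had 3227 Tac2 UMIs and the class without markers 3, a ratio of CPM of 181 (exact 95% counting interval 61.7 to 876). The edgeR test called that difference (adjusted p = 4.71e-14, 2.7% of genes called higher and 2.33% lower). All 3 Tac2 cells of the Hcrt class had at least 5 Gad1 and Gad2 UMIs, and their Hcrt share was 1.71% to 6.33%.

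**Figure D1:**
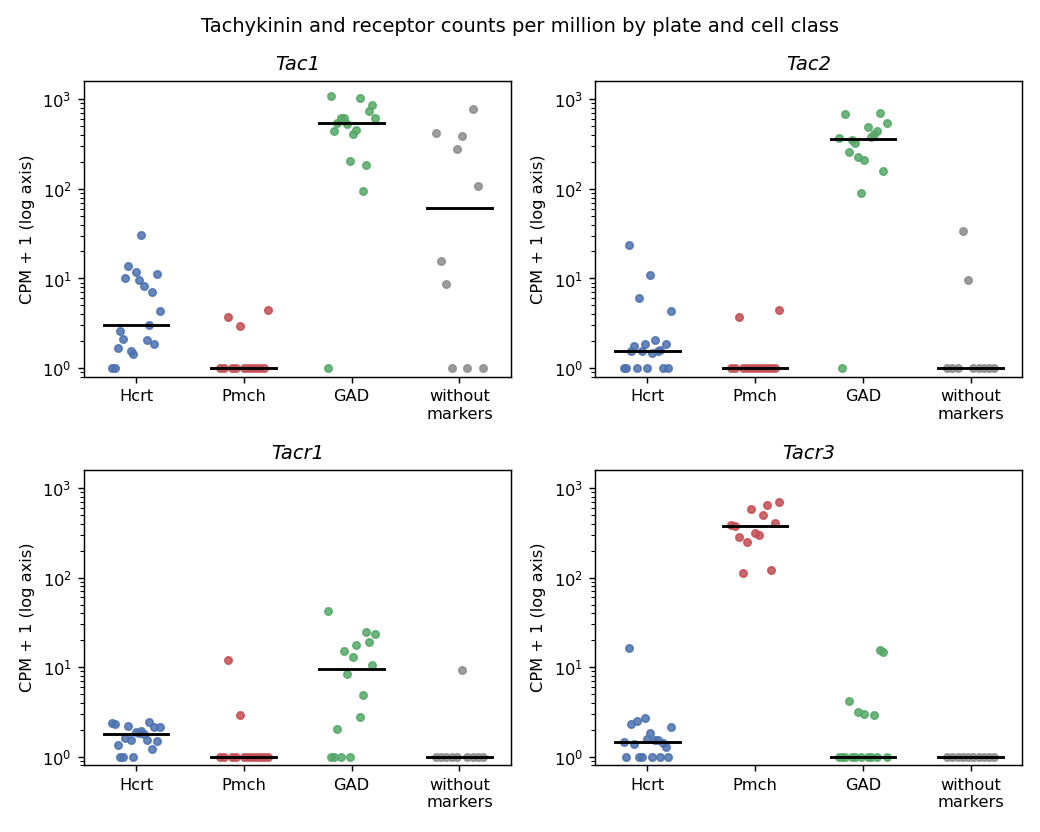
CPM plus 1 (log axis) of 4 tachykinin genes in each plate, 1 panel per gene, for plates with at least 3 cells of a class (19 Hcrt, 13 Pmch, 16 GAD and 10 without markers). Points are plates and black lines are medians: Tac1 and Tac2 stood high in the GAD class (medians 537 and 362 CPM), Tac1 spread widely in the class without markers, and Tacr3 stood high in all 13 Pmch plates (112.01 to 704 CPM).

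Tac1 and Tac2 marked largely separate GAD class cells. At the limit of 5 UMIs, 89 cells held Tac1 only, 76 Tac2 only, 10 both and 152 neither. Of the 89 Tac1-only cells, 85 had 0 Tac2 UMIs and none had more than 2, and of the 76 Tac2-only cells, 74 had 0 Tac1 UMIs and none had more than 2. Tac1 was present in 11.6% of the 86 Tac2 cells (5.72 to 20.3) and in 36.9% of the other 241 GAD class cells (30.8 to 43.4). The median depths of Tac1-only and Tac2-only cells were close, at 27857 and 25906 UMIs.

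The same split was seen plate by plate. On the 13 plates with at least 3 Tac2 cells and 3 other GAD class cells, the share of cells with Tac1 ran from 0% through 0% to 25% in Tac2 cells and from 11.1% through 38.5% to 66.7% in the others. It was lower in the Tac2 cells on 13 of 13 plates. The means were 9.38% ± 11 and 39.5% ± 15.8 (SD, n = 13), and the difference was -30.1 ± 21 percentage points. A two-sided exact permutation test that flips the sign of the plate differences gave p = 0.000244, the smallest that 13 plates allow. With cells thinned to 18000 UMIs, and the limit for both genes lowered to 3 UMIs, the difference was -33.2 percentage points on 11 plates (exact permutation p = 0.000977). Thinning left out 74 shallower cells of the GAD class.

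**Figure D2:**
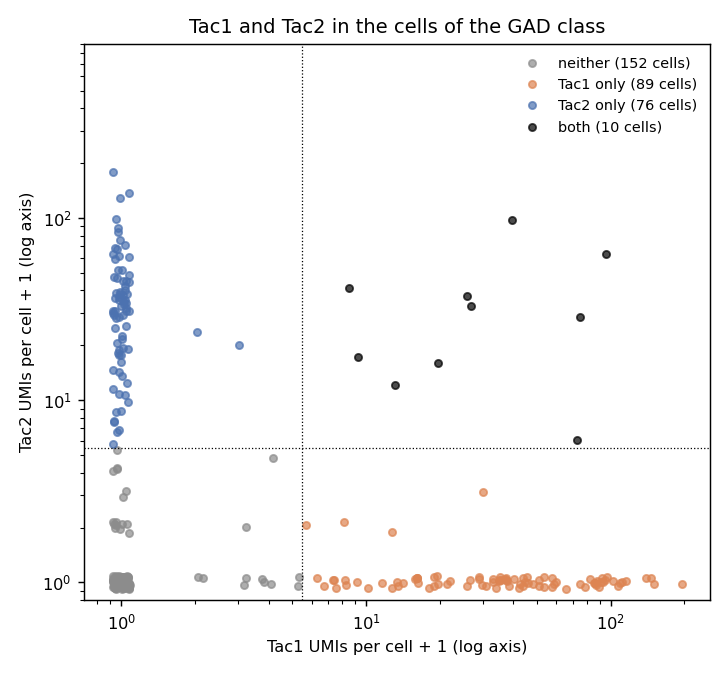
Tac1 and Tac2 UMIs plus 1 (log axes, small jitter) in each of the 327 cells of the GAD class, with dotted lines at the limit of 5 UMIs. Cells lie along the axes, 89 with Tac1 only and 76 with Tac2 only, and 10 cells (black) hold both.

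**Figure D3:**
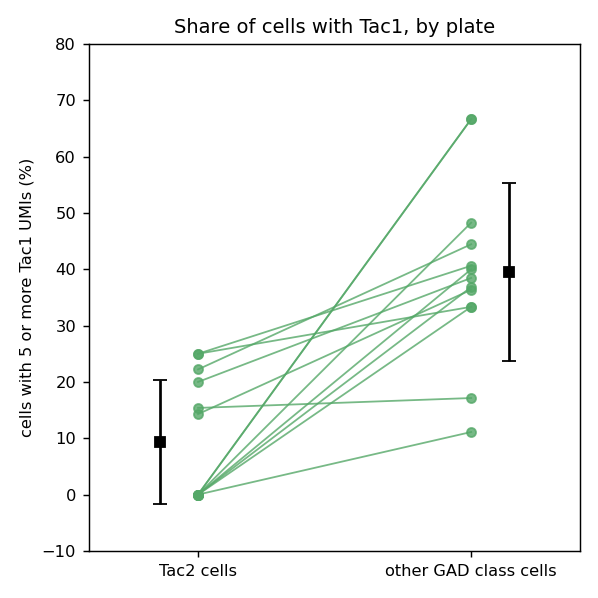
Share of cells with at least 5 Tac1 UMIs among Tac2 cells and among other GAD class cells, with 1 line per plate (13 plates); black squares and bars are means and SD. The share is lower in the Tac2 cells on each of the 13 plates.

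The balance of the transcripts within a cell gave the same picture. Of 156 GAD class cells with at least 10 UMIs of both genes summed, 79 drew less than 10% of the sum from Tac2 and 68 more than 90%, which left 9 cells (5.77%, 2.67 to 10.7) in between. The 10 cells with both came from 6 plates. They held 8 to 88 Tac1 UMIs and 5 to 98 Tac2 UMIs, at a median depth of 30573 UMIs, and 1 of them had a Tacr1 UMI. No doublet caller was run on these hand-filled wells, so the part of wells that received more than 1 cell was not tested.

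In levels summed per plate, the separation was not past the adjusted threshold over all genes. Tac1 in Tac2 cells ran from 0 through 8.01 to 477 CPM over 13 plates, and in other GAD class cells from 116.7 through 643 to 1817 CPM. It was lower in the Tac2 cells on 13 of 13 plates, with means of 122 ± 165 and 749 ± 429 CPM (SD), although the ranges over plates overlapped. The log2 fold change was -2.96 ± 0.74, with an unadjusted p = 0.00168 and an edgeR adjusted p = 0.0676 over 12573 genes, of which 2.12% were called and 1.59% were called lower. From the other side, Tac2 ran from 0 through 32.6 to 400 CPM in Tac1 cells and from 243 through 479 to 1154 CPM in other GAD class cells, and the ranges overlapped. It was at 113.6 ± 143 CPM in Tac1 cells and 545 ± 273 CPM in other GAD class cells over 12 plates, lower on 11 of 12. That log2 fold change was -2.59 ± 0.68 (edgeR adjusted p = 0.0855, 2.12% of 12379 genes called and 1.39% called lower). The comparisons share cells and are not independent. DESeq2 called both (-5.01, adjusted p = 5.2e-06, and -4.02, adjusted p = 0.000265).

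Several genes of other GAD class cells were lower in Tac2 cells. Cartpt, which encodes the CART peptide of appetite control, was at 614 CPM on average in Tac2 cells and 6495 CPM in other GAD class cells, lower on 13 of 13 plates (log2 -4.38 ± 0.80, edgeR adjusted p = 0.0122). It was the 1 gene called among 8 tested of a list of hypothalamic peptides. Crh, for corticotropin-releasing hormone, stood at -3.05 ± 0.74 (adjusted p = 0.0595) and Nts, for neurotensin, at -2.02 ± 0.65 (adjusted p = 0.186). Slc17a6 was lower (-4.03 ± 0.96, adjusted p = 0.00726, 2 UMIs in the Tac2 cells), while Slc32a1 was at 69.6 and 55.1 CPM (log2 0.13 ± 0.33, adjusted p = 0.936). Mc4r, the melanocortin receptor gene tied to appetite, was lower at 21.9 against 105.9 CPM (-2.80 ± 0.43, adjusted p = 2.96e-06).

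The genes that rose most in Tac2 cells, under the rule for naming them, were Qrfpr, a receptor for the peptide QRFP (log2 5.10 ± 1.07, 84 UMIs against 2), Adarb2, a brain RNA-binding protein of the ADAR family (2.93 ± 0.69), Otof, for the vesicle protein otoferlin (2.90 ± 0.64), the forkhead factor Foxp2 (2.83 ± 0.76) and the glutathione transferase Gsta4 (2.69 ± 0.66). The Foxp2 call was lost on leaving out any 1 of plates 3, 4, 8, 13, 14, 15 and 19 (adjusted p up to 0.0791), and that of Qrfpr in DESeq2 (3.28, adjusted p = 0.636). The strongest falls were in Procr and the signalling ligand Wnt4, with 0 UMIs in 83 Tac2 cells against 167 and 170 in 225 other cells. In the other cells these were 26.8 and 27.3 pooled CPM. Procr was lower in Tac2 cells on 9 of 13 plates and 0 in both sets on 4, and Wnt4 was lower on 13 of 13. Next came Th, for tyrosine hydroxylase of dopamine synthesis (-4.67 ± 0.82), the annexin Anxa2 (-4.65 ± 0.96) and the formin Diaph3 (-4.40 ± 0.63). In this comparison 67 genes were higher (0.533%) and 200 lower, so 25.1% of calls were higher, and with relative log expression size factors 45.1% were. DESeq2 did not call Procr (adjusted p = 0.613), and with a peptide limit of 0.2% the calls of Qrfpr, Adarb2, Otof, Foxp2, Gsta4, Anxa2, Cartpt and Slc17a6 were lost (adjusted p from 0.124 to 0.687). That limit also took Tac2 cells with at least 0.2% of UMIs from Hcrt out of the GAD class (median share 0.196%, highest 0.639%). The part of this in the lost calls was not tested.

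Tac1 cells went the other way for several of these genes, but each set was part of the other's reference. Cells with neither gene were not used as a common reference. Cartpt was at 8823 against 2049 CPM, higher on 12 of 12 plates (log2 2.3 ± 0.33, edgeR adjusted p = 0.00275), and Nts at 4830 against 2032 CPM, higher on 11 of 12 (1.15 ± 0.19, adjusted p = 0.00755). Mc4r was higher at 161 against 40.1 CPM (1.90 ± 0.28, adjusted p = 8.1e-08). Rgs4, which speeds the turn-off of Gq signals, was higher in Tac1 cells (2.13 ± 0.46, adjusted p = 0.0352) and lower in Tac2 cells (-2.76 ± 0.31, adjusted p = 1.11e-08). The first of these calls was lost on leaving out any 1 of plates 4, 5, 8, 11, 12, 13, 18 and 19 (adjusted p up to 0.0804), without a filter on low counts (0.0834) and with a limit of 10 UMIs (0.0613). Kiss1r, the kisspeptin receptor gene, was lower in Tac1 cells (-3.66 ± 0.90, adjusted p = 0.0067).

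The largest other rises in Tac1 cells were in the small GTPase gene Rhoc (4.31 ± 0.97, 66 UMIs against 3), Anxa2 (4.02 ± 0.78), the tubulin gene Tubb6 (3.97 ± 0.79), Fgl2 (3.58 ± 0.84) and the small heat shock gene Hspb8 (3.14 ± 0.91). The Hspb8 call was lost on leaving out any 1 of plates 3, 5, 9, 13, 17, 18 and 19 (adjusted p up to 0.118) and with no filter on low counts (0.0596). The largest falls were in Itm2a, with 0 UMIs against a mean of 28.9 CPM, in the nucleoside transporter gene Slc29a1 (-3.85 ± 0.84), in Gsta4 (-3.75 ± 0.82), in BC030499 (-3.71 ± 0.87) and in Kiss1r. Altogether 91 genes were higher (0.735%) and 172 lower, and with relative log expression size factors 129 were higher and 126 lower. At a peptide limit of 0.2% the calls of Cartpt, Nts, Tubb6, Fgl2, Hspb8, Slc29a1, Gsta4 and BC030499 in Tac1 cells were lost (adjusted p from 0.0910 to 0.922). That limit also took Tac1 cells with at least 0.2% of UMIs from Hcrt out of the GAD class (median share 0.182%, highest 0.779%). Rhoc and Gsta4 were not called in DESeq2 (adjusted p = 0.190 and 0.0691), nor Kiss1r without the plate as a block (0.110). Anxa2 and Gsta4 changed in the opposite direction in Tac2 cells, but each set was part of the other's reference.

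Across the 327 GAD class cells, the genes whose log2(CPM + 1) followed Tac1 most closely were Rgs4 (Pearson r = 0.55), Cartpt (0.54), the calcium channel subunit gene Cacng5 (0.48), the metallothionein gene Mt2 (0.48) and Rasgrp1 (0.46), which activates Ras. For Tac2 they were Otof (0.51), the adhesion genes Ntm (0.41) and Pcdh19 (0.40), the G protein subunit gene Gng13 (0.40) and Tcerg1l (0.39). Tac1 and Tac2 themselves had r = -0.28. A UMI of Otof was found in 50% of Tac2 cells and 8.71% of other GAD class cells, and a UMI of Rgs4 in 78.8% of Tac1 cells and 29.8% of others. These values describe cells that share plates and libraries, and they rest on the same cells as the tests of Rgs4, Cartpt and Otof above. Depth itself had r = 0.04 with Tac1 and 0.06 with Tac2.

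The genes of dynorphin, kisspeptin and estrogen receptor alpha, which accompany Tac2 in arcuate neurons, were not a shared feature of Tac2 cells here. Of 7 genes tested from a list of such partners, 0 passed in Tac2 cells (median log2 -0.72, against -0.23 over all genes). With 2.12% of all genes called in this comparison, 0 of 7 says little about the list. Pdyn, the dynorphin precursor gene, reached 5 UMIs in 3.5% of Tac2 cells and in 96.1% of Hcrt class cells. Esr1, the estrogen receptor alpha gene, reached 5 UMIs in 3.5% of Tac2 cells. Kiss1, the kisspeptin gene, had 0 UMIs in the GAD class. The arcuate markers Agrp, Pomc, Kiss1, Ghrh and Npy summed to 11.6 CPM in Tac2 cells, from 0 to 29.6 over plates, and to 22.6 in GAD class cells with neither tachykinin.

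Tacr1, the receptor gene of substance P, was sparse and highest in the GAD class. It had 134 UMIs in 66 cells, of which 85 UMIs in 32 cells were in the GAD class. At least 1 UMI was present in 9.79% of GAD class cells (6.79 to 13.5), 2.63% of Hcrt class cells (1.75 to 3.77), 2.86% of Pmch class cells (0.348 to 9.94) and 5.63% of cells without markers (1.56 to 13.8). The GAD class was the shallowest of the 4, and after thinning to 18000 UMIs the shares were 7.91%, 1.29%, 1.45% and 1.79%. Over plates, Tacr1 ran from 0 through 8.57 to 41.4 CPM in the GAD class and from 0 through 0.784 to 1.46 CPM in the Hcrt class. Of the 16 GAD class plates, 11 lay above every Hcrt class plate and 4 were at 0. Means were 10.8 ± 11.7 (SD, n = 16) and 0.726 ± 0.481 CPM (n = 19), and the log2 fold change was 3.03 ± 0.59 (edgeR adjusted p = 4.34e-05). The GAD class and the class without markers stood at 85 and 2 UMIs on the plates compared, a ratio of 7.13 (counting interval 1.91 to 59.8) that did not pass in edgeR (adjusted p = 0.103). It passed at 10 Gad1 and Gad2 UMIs (log2 3.25, adjusted p = 0.0389) and without the plate as a block (2.93, adjusted p = 0.0279). It also passed without plate 9, which held both of those 2 UMIs, so that the class without markers was at 0 (adjusted p = 0.0162) and the fitted fold is no bound. The Pmch class (log2 0.31 ± 0.84, adjusted p = 0.862) and the class without markers (0.22 ± 0.96, adjusted p = 0.922) did not differ from the Hcrt class past the threshold.

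Within the GAD class, a Tacr1 UMI was found in 18 of 86 Tac2 cells (20.9%, 12.9 to 31.0) and in 14 of the other 241 (5.81%, 3.21 to 9.55). After thinning these were 12 of 72 (16.7%) and 8 of 181 (4.42%), beside 1.29% of Hcrt class cells. Among Tac1 cells it was 6 of 99 (6.06%). In plate levels the difference was not resolved. Tacr1 ran from 0 through 9.09 to 54.1 CPM in Tac2 cells and from 0 through 4.69 to 24.8 CPM in other cells over 13 plates, higher in Tac2 cells on 6 plates, lower on 5 and 0 in both on 2. The log2 fold change was 1.13 ± 0.84 (edgeR adjusted p = 0.670). In Tac1 cells against other GAD class cells it was -2.25 ± 0.99, with an unadjusted p = 0.0243 and an edgeR adjusted p = 0.303, lower on 9 of 12 plates. Genes that followed Tacr1 across GAD class cells reached a Pearson r of at most 0.26 (Rubcn), too weak in such sparse counts to read.

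Tacr2, the receptor gene of neurokinin A, had 6 UMIs in 5 of 1534 cells, 4 of them in the Hcrt class and 2 in 1 cell without markers. It entered no test. In the GAD class 0 of 327 cells had a UMI, which allows a share of up to 0.917%, and in the Pmch class 0 of 70, which allows up to 4.29%. These limits are on cells with a UMI at this depth, not on cells that express the gene. Tac4, the remaining tachykinin gene, had 2 UMIs in all.

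Tacr3, the receptor gene of neurokinin B, was a gene of the Pmch class. Of its 1889 UMIs, 94.9% lay in those 70 cells. At least 1 UMI was found in 54 of them (77.1%, 65.6 to 86.3) and at least 5 in 51 (72.9%, 60.9 to 82.8), with a median of 32 UMIs in the latter. A UMI was found in 2.35% of Hcrt class cells, 2.45% of GAD class cells and 0 of 71 cells without markers. After thinning the shares were 75.4% in the Pmch class, 0.797% in the Hcrt class and 1.98% in the GAD class. Over plates, Tacr3 ran from 112.01 through 376 to 704 CPM in the Pmch class (n = 13) and from 0 through 0.468 to 15.3 CPM in the Hcrt class (n = 19), so the classes did not overlap on these plates. Means were 384 ± 185 and 1.32 ± 3.44 CPM (SD). The log2 fold change was 8.01 ± 0.52 (edgeR adjusted p = 1.6e-12), in a comparison that called 5.71% of 18198 genes higher and 12.9% lower. Plates 7, 12, 14 and 16, left out with 2 Pmch class cells each, were at 405, 537, 0 and 29.1 CPM. The share of all genes whose plates separate the classes in this way was not counted.

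**Figure D4:**
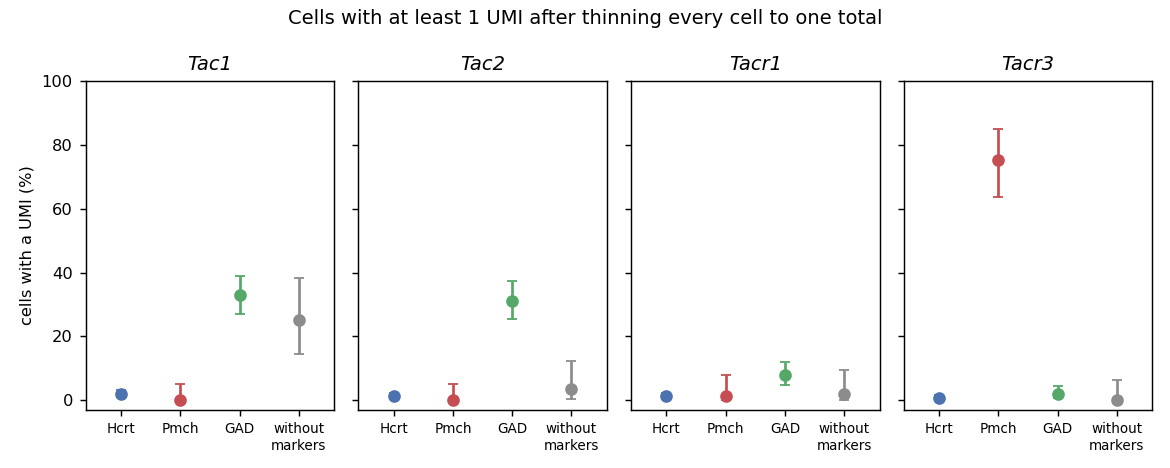
Share of cells with at least 1 UMI after thinning each cell to 18000 UMIs, for 4 genes and 4 classes (1004 Hcrt, 69 Pmch, 253 GAD and 56 without markers); bars are exact 95% intervals for counting error. Tacr3 reaches 75.4% in the Pmch class and at most 1.98% elsewhere, while Tacr1 is highest in the GAD class at 7.91%.

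Outside the Pmch class, Tacr3 reached 5 UMIs in 2 cells. One, of plate 3 with 44 UMIs, lay in the Hcrt class with 6.91% of its UMIs from Hcrt and 5.96% from Pmch, and so held both peptides. The other was a GAD class cell with 9 UMIs. The GAD class stood at 2.35 ± 4.75 CPM (SD, n = 16) and did not differ from the Hcrt class past the threshold (log2 0.73 ± 0.78, edgeR adjusted p = 0.611), but it did without plate 3 (1.59, adjusted p = 0.0369) and without the wells with both peptides (1.54, adjusted p = 0.0361). The 3 Tac2 cells with a Tacr3 UMI gave 14 UMIs in all. The neurokinin B gene and its receptor gene were high in different classes.

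Within the Pmch class, Tacr3 went with Cartpt. In the 51 Tacr3 cells, Cartpt ran from 0 through a median of 555 to 3256 UMIs and 34 cells had at least 100. The 16 cells with 0 Tacr3 UMIs had 0 to 2 Cartpt UMIs, and the 3 cells with 1 to 4 Tacr3 UMIs had 0, 3 and 881. Read from the other side, 34 of the 35 cells with at least 100 Cartpt UMIs had at least 5 Tacr3 UMIs, against 17 of the other 35. Tacr3 cells were deeper than the others, with medians of 71344 and 40750 UMIs, and 31 of the 35 deeper cells against 20 of the 35 shallower ones reached 5 Tacr3 UMIs. Their Pmch share was close to that of the others (median 16.6% against 20.4%). Across the 70 cells, the genes that followed Tacr3 most closely were Nptx1, for a synaptic pentraxin (r = 0.78), Cartpt (0.77), Maged2 (0.75), Parm1 (0.75) and the complexin gene Cplx1 (0.74), while depth had r = 0.33.

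**Figure D5:**
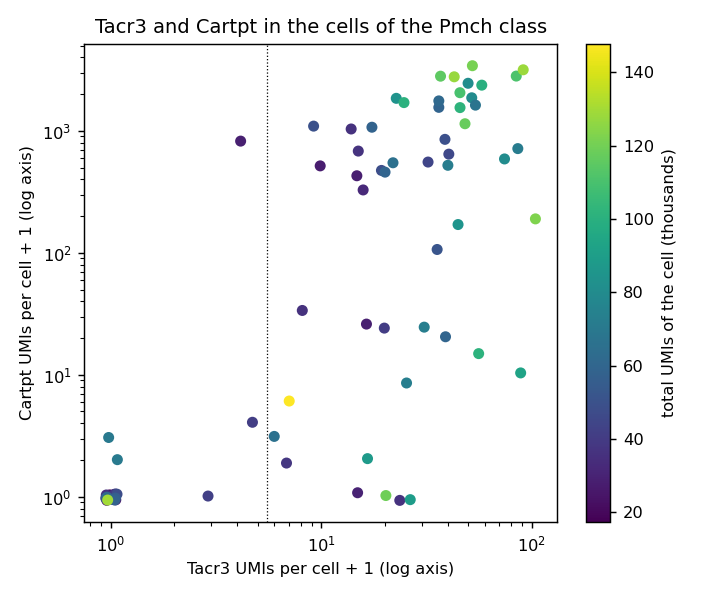
Tacr3 and Cartpt UMIs plus 1 (log axes, small jitter) in each of the 70 cells of the Pmch class, coloured by the cell's total UMIs, with a dotted line at the limit of 5 Tacr3 UMIs. The 16 cells without Tacr3 have at most 2 Cartpt UMIs, and 34 of 51 Tacr3 cells have at least 100.

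A comparison of Tacr3 cells with other Pmch class cells was added after these values were seen, on 13 plates with 36 and 17 cells. With 17 cells over 13 plates, most sums of the other cells were single cells. The adjusted p-values and plate counts below thus rest nearly on cells as replicates and can be too strong. Nptx1 and Cartpt had already been singled out by their likeness to Tacr3 in these cells, so their values are a description with no test. Nptx1 was at 478 against 76.0 CPM, higher on 13 of 13 plates. Cartpt was at 10642 against 2378 CPM, higher on 11 plates and lower on 1, and of the 887 Cartpt UMIs of the other cells, 881 came from 1 cell. The fitted log2 fold change of Cartpt was 8.74, and 2.69 without the plate as a block. Lmo2, Prlr, for the prolactin receptor, and Eif4ebp1, which restrains translation, had 89, 74 and 70 UMIs in Tacr3 cells and 0 in the others. In Tacr3 cells these were 36.0, 29.9 and 28.3 pooled CPM. The other cells were fewer and shallower, and a 0 there allows up to 3 UMIs. The Eif4ebp1 call was lost without plate 8 (adjusted p = 0.0520) and with relative log expression size factors (0.0676), and that of Lmo2 with sets cut at 10 Tacr3 UMIs (0.265). Pcsk2, for prohormone convertase 2, was higher (1.31 ± 0.19, adjusted p = 6.05e-09). Lower genes were Patj (-3.34 ± 0.92), Car8 (-2.85 ± 0.61), the cadherin gene Cdh13 (-2.64 ± 0.47), Tagln2 (-2.54 ± 0.66) and the serotonin receptor gene Htr2c (-1.93 ± 0.52, lower on 13 of 13 plates). The call was lost for Patj on leaving out any 1 of plates 1, 2, 8, 11 and 12 (adjusted p up to 0.103), for Tagln2 without plate 2, 4 or 18 (up to 0.154) and for Htr2c without plate 3, 5, 11 or 12 (up to 0.124). DESeq2 called neither Patj (0.528) nor Tagln2 (0.263), and without the plate as a block Cdh13 (0.109) and Tagln2 (0.214) were not called. In all 99 of 9163 genes were higher (1.08%) and 5 lower (0.0546%), the median over all genes was 0.48, and with relative log expression size factors 32 were higher and 10 lower at a median of 0.17. Of the 8 neuronal markers, 4 were among the higher genes (Syt1, Stmn2, Tubb3 and Uchl1, with a median of 0.60 over the 8), and the part of this shift and of the greater depth of Tacr3 cells in the other changes was not tested.

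The machinery around the receptors differed between the classes gene by gene. Of 16 genes tested of a list of Gq signalling, 5 were higher and 1 lower in the GAD class than in the Hcrt class (median log2 0.33, against -0.12 over all genes, of which 7.87% were called higher and 12.4% lower). Plcb1, for a phospholipase C that Gq activates, was at 89.9 against 2.60 CPM (4.70 ± 0.39, edgeR adjusted p = 1.21e-16), and Rgs2, another brake on Gq, at 288 against 455 CPM (-1.24 ± 0.14, adjusted p = 4.59e-12). The inositol trisphosphate receptor gene Itpr2 was also higher (1.99 ± 0.62). Of 6 receptor desensitisation genes tested, 2 were higher, beside 7.87% of all genes, the arrestin gene Arrb1 (1.29 ± 0.23) and the receptor kinase gene Grk2 (1.05 ± 0.21). Between the Pmch and Hcrt classes, 2 Gq genes were higher and 5 lower of 16, beside 5.71% and 12.9% of all genes (median -0.39, as over all genes). There Plcb1 was higher (2.63 ± 0.46) and Itpr1 (-3.01 ± 0.44) and Rgs4 (-2.90 ± 0.38) were lower. Plcb1 was not called at a peptide limit of 0.2% (0.75, adjusted p = 0.226). Prkcd was lower too (-3.47 ± 1.02), on 1 UMI in the Pmch class and not in DESeq2 (adjusted p = 0.0620). In Tac2 cells 1 of 13 was higher and 3 lower, beside 0.533% and 1.59% of all genes, but with relative log expression size factors 1 and 1. Of these, Rgs4 kept its call on leaving out each plate. Plcb4 (1.06 ± 0.32, adjusted p = 0.05), Prkca (-2.56 ± 0.74, adjusted p = 0.0405) and Rgs2 (-0.67 ± 0.19, adjusted p = 0.0472) lost theirs without most single plates, and kept them in 3, 4 and 4 of 13 such fits (adjusted p up to 0.183, 0.0861 and 0.108).

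Genes that cut and finish peptide precursors were mostly lower in the GAD class than in the Hcrt class, 7 of 10 tested against 1 higher (median log2 -1.24), beside 12.4% of all genes lower and 7.87% higher (median -0.12). The prohormone convertase genes Pcsk6 (-3.99 ± 0.47), Pcsk1 (-3.52 ± 0.27) and Pcsk2 (-2.30 ± 0.26) were lower and Pcsk5 was higher (2.64 ± 0.60). With relative log expression size factors 6 were lower and 1 higher. In the Pmch class Pcsk1 (-5.80 ± 0.37), Pcsk6 (-3.90 ± 0.56) and Pam, for the enzyme that amidates peptide ends (-1.26 ± 0.15), were lower than in the Hcrt class and Pcsk2 was higher (2.47 ± 0.25). In Tac1 cells 0 of these 10 genes passed in edgeR, and in Tac2 cells 1 did, Pcsk1 (-1.77 ± 0.48, adjusted p = 0.0342), beside 2.12% of all genes in each comparison. The Pcsk1 call held in only 4 of 13 fits that leave out a plate (adjusted p up to 0.118) and was lost without the plate as a block (0.0738). Of 6 tested genes of peptidases that cleave tachykinins, 2 passed as higher in the GAD class than in the Hcrt class, Mme, for neprilysin (1.96 ± 0.73, adjusted p = 0.0439), and Ece2 (0.48 ± 0.17, adjusted p = 0.0330). Mme lost its call on leaving out any 1 of plates 3, 4, 11, 12, 14, 17 and 18 (adjusted p up to 0.126) and with no filter on low counts (0.115), and Ece2 without plate 5, 8, 10, 12 or 18 (up to 0.0728) and with no such filter (0.412). Over all alternatives other than leaving out a plate, Mme kept its call in 9 of 12 (adjusted p up to 0.219) and Ece2 in 11 of 13.

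Wells without a picked cell gave the background of the members. Of 64 wells labelled ERCC and 40 labelled empty, all but 1 had at most 1 Tac1 UMI, with a median of 169 UMIs in all. Tac2, Tacr2 and Tacr3 had 0 UMIs in them. Tacr1 had 1 UMI in 1 of the 64 ERCC wells, 1 of 21 wells labelled Empty and 1 of 19 labelled empty. The 68 wells labelled qRNA, whose contents are not stated, had a median of 18251 UMIs. They held 1 UMI each of Tac1, Tac2 and Tacr1, 2 of Tacr2 in 2 wells and 0 of Tacr3. Whether Tacr1 outside the GAD class, and Tacr2 in any class, stood above this background was not tested. The 27 kept wells outside the neuronal gate held 16 Tac1, 3 Tac2, 1 Tacr1 and 0 Tacr3 UMIs.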

How the data were processed

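The authors deposited whole-number counts for each gene in each well, with a table describing the wells. The submitters' processing notes name STARsolo 2.7.5c, STAR 2.7.5c, cutadapt 2.1.0 and bcl2fastq 2.20, the build GRCm38, and Seurat 2.3.4 with R 3.4.3. The annotation release, strand use and UMI collapsing are not given in the sources used here. Rows that name no mouse gene (3.83% of counts) were left out.

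UMIs were summed per plate and class (plates with at least 3 cells of a class, 1 for the Tacr3 sets) and tested with edgeR 4.0.16 in R 4.3.3 (TMM, robust quasi-likelihood test, plate as block). All 4 classes shared 1 fit. The filter took genes with at least 20 UMIs in all and a UMI in at least 5 sums. P-values are two-sided and Benjamini-Hochberg adjusted over all genes, with a threshold of 0.05. The SE was taken as the size of the log2 fold change over the root of its F statistic. Fold changes are relative to TMM and differ from ratios of CPM. Fits that leave out a plate reused the dispersion trend. DESeq2 1.42.0 was an alternative. The test was also run on simulated counts with a single fixed spread and no plate or mouse effect, so that run cannot check the p-values for such effects. Shares carry exact (Clopper-Pearson) 95% intervals, and 0 counts a limit of 3. Both cover counting error only. Thinning to 18000 UMIs left out shallower cells. The 384 barcodes each serve 4 to 5 plates by design.

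Members, lists and classes were chosen with earlier results of these data known. Named were the members, the 5 genes most correlated with a member (with a UMI in at least 10% of cells), the 5 largest changes each way with at least 20 CPM within the GAD and Pmch classes, and up to 4 called genes per list, without predicted, mitochondrial and class-defining genes. The transporter genes, Crh, Nts, Mc4r and the arcuate peptides were added for description. Some genes that this rule names are not reported here.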

Additional observations from a re-analysis of the deposited data

Results flagged for a closer look

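In the class without markers, Tac2 stood at 32.8 CPM on plate 5 while the next of the 10 plates was at 8.55, and Tacr1 stood at 8.30 CPM on plate 9 while the other 9 plates were at 0. In both cases the highest plate lay further from its neighbour than Dixon's limit allows. The class held 4 Tac2 and 6 Tacr1 UMIs in all, and 3 groups of plates were tested. Tac2 was at 0 on 8 of the 10 plates and Tacr1 on 9, and the flagged values rested on 1 and 2 UMIs. For Tacr1 a flag was then certain, and for neither gene does the test's usual rate of 1 in 20 apply.

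A well labelled Empty on plate 15 held 16 Tac1 UMIs, above the 1 UMI that the other ERCC and empty wells reached at most. It had 100707 UMIs over 5682 genes, close to the median of 95063 UMIs of the picked cells of that plate, with 67 UMIs of Gad1 and Gad2, 12 of Slc32a1 and 0 of Slc17a6. It was in no comparison.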

How the results depend on the processing

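Of 1786 results under alternatives other than leaving out a plate, 1633 kept their direction and their side of the threshold (counts within 1.5 times), as did 2418 of 2522 on leaving out 1 plate. The class differences of Tac1, Tac2, Tacr1 and Tacr3 that the report gives as called against the Hcrt class kept both on leaving out each plate, with ranges of 6.50 to 6.93 and 7.15 to 7.74 for Tac1 and Tac2 and 2.92 to 3.19 for Tacr1 in the GAD class, and 7.81 to 8.74 for Tacr3 in the Pmch class.

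The plate is a true pair here, since both sets of cells came from it. Without the replicate block, the calls were 1962 between the GAD class and the class without markers (915 with it), 3789 between the latter and the Hcrt class (2420) and 164 for Tacr3 cells, and Tac1 in Tac2 cells (-2.53) and Tac2 in Tac1 cells (-2.16) passed.

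With edgeR's filterByExpr, calls were 489 between the GAD class and the class without markers, 2111 (3380) between the Pmch and Hcrt classes, 1512 between the class without markers and the Hcrt class, 177 (267) for Tac2 cells and 28 for Tacr3 cells, and Tac1 in Tac2 cells passed (-2.74). A peptide limit of 0.2% moved GAD class cells with that share of Hcrt or Pmch into those classes. Among GAD class cells, Hcrt made up a median of 0.182% of UMIs in Tac1 cells and 0.196% in Tac2 cells, and at most 0.779% and 0.639%. Fewer plates were left. Calls were then 2379 (3691) between the GAD and Hcrt classes, and 46 for both Tac2 and Tac1 cells (263 for the latter). The other 2 comparisons, with the class without markers, gave 363 and 1510. With only the 2 classes in a fit they were 175 and 1335. The GAD class against the class without markers gave 466 with at least 5 cells per plate and 498 in the neuronal gate. DESeq2 gave 438 for Tac2 cells, 444 for Tac1 cells and 64 for Tacr3 cells, and relative log expression size factors 42 for the last. Tac1 in Tac2 cells passed with DESeq2 (-5.01), with bias-adjusted edgeR (-2.40) and at 10 UMIs (-3.23), and Tac2 in Tac1 cells with the first of these (-4.02) and the second (-2.02). Bias-adjusted edgeR and the Tacr3 cells were chosen after seeing the data.

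Leaving out each plate gave 465 to 929 calls between the GAD class and the class without markers, with 465 without plate 19 and 537 without plate 14, 197 to 301 for Tac2 cells, 217 to 303 for Tac1 cells and 79 to 137 for Tacr3 cells. Tac1 in Tac2 cells stayed at -3.27 to -2.66 and Tac2 in Tac1 cells at -2.95 to -2.35. Among the members, directions turned in these differences, none of them called: Tacr3 between the GAD and Hcrt classes (-0.11 at 0.2%), Tacr1 between the Pmch and Hcrt classes (-0.029 at 0.2%, -0.30 with 2 classes, -1.49 to 0.51 over plates left out), and, for the class without markers against the Hcrt class, Tac2 (1.25 in DESeq2, 1.99 at 10 Gad1 and Gad2 UMIs, -1.93 to 0.50 over plates), Tacr1 (-0.18 at 10 UMIs, -3.06 to 0.53 over plates) and Tacr3 (0.69 in DESeq2). Nts, which was called lower in the class without markers than in the Hcrt class (-1.58, edgeR adjusted p = 0.00634), turned to 0.13 at 10 Gad1 and Gad2 UMIs. The cause was not tested. Size factors moved the median over all genes, and with relative log expression the calls were 1306 higher and 1698 lower between the Pmch and Hcrt classes (1040 and 2340), 1389 and 603 between the class without markers and the Hcrt class (767 and 1653), and 250 and 592 between the GAD class and the class without markers (491 and 424). Depth limits Tacr1 and Tacr2, which had 134 and 6 UMIs.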
